A study of Mus musculus with 29 samples.

Results

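Tumours were compared with non-tumour liver of mice labelled IL17RA-/- in the treatment group labelled HFD, in 3 tumour libraries (replicates 4 to 6) and 3 non-tumour libraries (replicates 1 to 3). The series measured gene expression by RNA sequencing of liver from C57BL/6 mice. All of them, controls included, had received 25 mg/kg of diethylnitrosamine (DEN), a liver carcinogen, by intraperitoneal injection at 2 weeks of age, and were then fed for 18 weeks. The 29 libraries fall into 8 groups by tissue, treatment (HFD or HFD_alcohol) and genotype label (IL17RA-/- or WT). The diet is given here as the sample labels name it, HFD, although the description of the series mentions liquid diets with ethanol and pair-fed controls. The sex of the mice, their age at collection, the part of the gene removed and any pooling are not stated in the labels, nor is it stated whether a tumour and a non-tumour library came from the same animal. The p-values of single genes therefore measure a spread between libraries within groups, estimated jointly over all 29 libraries and not from the 6 compared alone. Values are CPM, counts scaled to a sum of 1e+06 per library. Of the 22187 genes listed, 12631 reached 1 CPM in at least 3 of the 6 libraries, and these are the genes compared. Among them 11257 reached it in all 6 libraries, 225 only in the 3 tumours and 70 only in the 3 non-tumour libraries. The genes of the last 2 kinds had to differ between the tissues to be included at all.

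DEN is turned into a DNA-alkylating agent by cytochrome P450 enzymes, Cyp2e1 above all, in hepatocytes near the central vein, and gives rise to hepatocellular tumours. A mature hepatocyte secretes most plasma proteins, makes urea and bile acids, oxidizes fatty acids and clears drugs, and these tasks are divided between cells near the portal and the central vein, the latter under Wnt signals. Hepatocellular tumours are known for re-expressing fetal liver genes such as alpha-fetoprotein and for dividing. IL-17RA is the receptor subunit through which IL-17A acts on hepatocytes, stellate cells and macrophages.

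The gene named by the genotype label was examined first. Il17ra (ENSMUSG00000002897, chromosome 6, 120463247 to 120487559, GRCm38) was at 60.8, 62.9 and 54.4 CPM in tumour replicates 4, 5 and 6 and at 36.1, 16.5 and 20.9 CPM in non-tumour replicates 1, 2 and 3; library values are given in this order throughout. All 3 tumours lay above all non-tumour libraries, and the gene was called higher in tumours (log2 fold change 1.31 ± 0.31, adjusted p 0.00141). In WT mice on HFD it was at 32.8 ± 13.8 CPM in tumours and 26.3 ± 1.02 in non-tumour liver (SD, n = 3 each), so the libraries labelled IL17RA-/- did not show a loss of its reads. A sum of reads over a gene cannot show the loss of an exon, so the genotype is given as labelled. Here and below, a call is an adjusted p under 0.05, two-sided, from limma with Benjamini-Hochberg adjustment over the 12631 genes. Fold changes are tumour minus non-tumour on log2(CPM + 1), ± the standard error, which understates the change of genes near 0.

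The recovered depth was 4893837 to 7216176 counts in the tumours and 4653422 to 9660584 in non-tumour liver, so 3 counts, the lowest level read as detection, stood for 0.311 to 0.645 CPM. The 10 most abundant genes took 25.5% to 29.5% of the counts in tumours and 15.5% to 19.6% in non-tumour liver, without overlap, although an exact permutation test of 3 against 3 libraries cannot go below 0.10. Non-tumour replicate 3 held more of some tumour-type transcripts than replicates 1 and 2, with Afp at 155 CPM against 0.873 and 8.60 and Gpc3 at 263 CPM against 4.48 and 4.94. On the first principal component of all 29 libraries (55.7% of the variance) the tumours lay at 60.2 to 63.7 and the non-tumour libraries at -42.4, -53.1 and -24.3. Of the genes called lower without the library in question, replicate 3 was nearer the tumours than both others for 73% and replicate 1 for 26%; of those called higher, replicate 1 was for 54% and replicate 3 for 51.2%. Across genes, replicate 3 correlated with replicate 2 (Pearson r 0.9894 on the log2 scale) about as closely as replicate 1 did (0.9884). Without replicate 3, 4903 genes were called (38.8%), and 4757 of the 5421 calls made with all libraries (87.8%) were among them in the same direction. All libraries carried a hepatocyte profile, led by albumin, at 9.85% to 13.01% of the counts in tumours and 2.73% to 5.88% in non-tumour liver.

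The tissues differed over a large part of the genes compared. Of the 12631 genes 5421 were called (42.9%), 3159 of them higher in tumours (25.0%) and 2262 lower (17.9%). At least 1 log2 unit of change was reached by 1494 of the genes called higher (11.8%) and 917 of those called lower (7.26%). The 3 tumours lay above all non-tumour libraries for 4194 genes (33.2%) and below them for 2966 (23.5%), so that 7160 genes did not overlap (56.7%). The median log2 fold change of all genes was 0.14, and 0.03 once the libraries were rescaled by median-ratio factors, a setting with 2884 genes higher and 2869 lower. With the trend over gene length described further on taken out, 2443 genes were higher and 2835 lower. In the accounts of gene groups that follow, these shares and the median of 0.14 are the background against which each list is read. Leaving out any 1 of the 6 libraries lowered the calls over all genes, to 2252 to 2940 higher and 1808 to 2215 lower. List counts without a library are to be read beside that general loss.

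**Figure D1:**
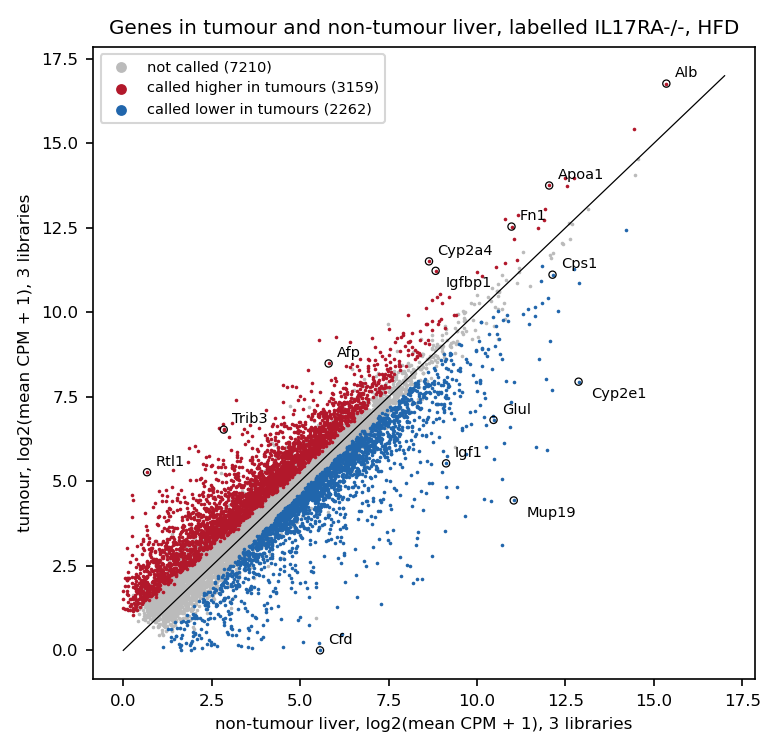
Mean level of each of the 12631 genes in the 3 tumours (vertical) and the 3 non-tumour libraries (horizontal), as log2(mean CPM + 1), with the line of equal levels. Red points are the 3159 genes called higher in tumours, blue the 2262 called lower and grey the other 7210, and circled genes are named in the text.

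The largest rises were of genes nearly silent in non-tumour replicates 1 and 2, several of them better known from neurons. They were taken as the 10 largest among called genes with a mean of at least 5 CPM and no overlap between the tissues. Rtl1, an imprinted retrotransposon-derived gene that drives liver tumours in mice, was at 34.6, 37.01 and 41.1 CPM in the tumours and at 0.218, 0.215 and 1.35 in non-tumour liver. Its level in the first 2 non-tumour libraries was under 3 counts, so its fold change (4.67 ± 0.76) depends on the pseudocount. Cacna1b, a calcium channel subunit, was at 57.9, 178 and 73.2 CPM against 0.218, 0.860 and 17.2 (log2 fold change 4.74 ± 0.997, adjusted p 5.43e-04). Kif5c, a neuronal kinesin, was at 309, 194 and 190.4 CPM against 1.96, 4.298 and 59.1, a change of 4.53 ± 1.06. Cpe, which trims peptide hormones, reached 141, 271 and 97.9 CPM from 1.53, 3.87 and 19.1. Non-tumour replicate 3 was the highest of its group for each of the 10 genes. Igdcc4 and Adcy1, an adenylate cyclase, changed by 4.63 and 4.40, the cadherin Cdh17 by 4.28, Hid1 by 4.26, Rasal1, which switches off Ras, by 4.06 and the sodium channel Scn8a by 4.05. Without non-tumour replicate 3 the changes were larger, 5.83 for Kif5c and 5.94 for Cacna1b.

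The largest falls were of major urinary proteins, male-biased pheromone carriers that hepatocytes secrete, and of Cyp2c enzymes. Mup19 was at 7.27, 49.9 and 4.76 CPM in the tumours against 2864, 2330 and 1113 in non-tumour liver (log2 fold change -7.18 ± 1.09, adjusted p 1.69e-05). Mup7, Mup17, Mup11, Mup10 and Mup15 changed by -7.02, -6.67, -6.65, -6.52 and -6.07. These genes are near-identical copies among which reads may be split, so single values are uncertain; the 21 Mup genes together held 0.111% to 0.400% of the counts in tumours and 1.39% to 3.69% in non-tumour liver. With limma-voom on the recovered counts the calls of Mup17 and Mup15 were lost (adjusted p 0.0702 and 0.0639). Cyp2c29, a drug-metabolizing enzyme, was at 19.1, 39.6 and 5.31 CPM against 830.0, 1672 and 1047, a change of -6.04 ± 0.87. Its close relatives Cyp2c54, Cyp2c37 and Cyp2c50 changed by -5.96, -5.93 and -5.82. Tumour replicate 5 was the highest of the tumours for all 10 genes, which were chosen by the same rule, absence of overlap included.

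**Figure D2:**
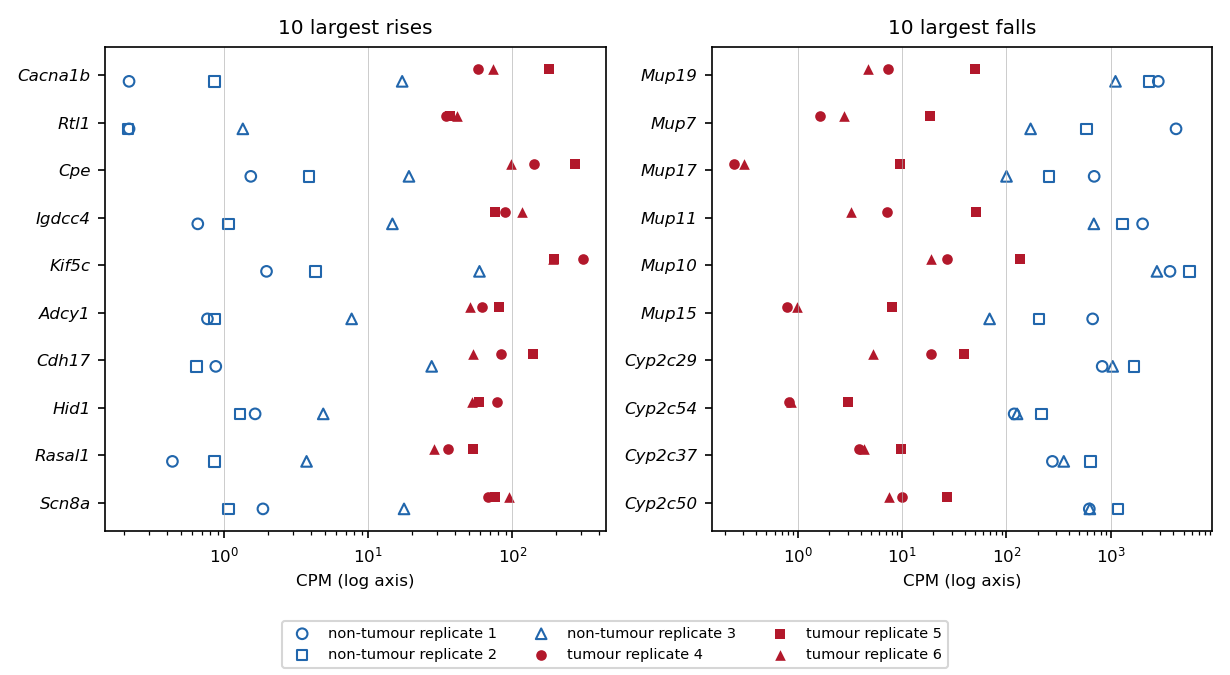
CPM (log axis) of the 10 genes with the largest rise (left) and the 10 with the largest fall (right) in each library, with open blue symbols for the 3 non-tumour and filled red symbols for the 3 tumour libraries. In the left panel the triangle of non-tumour replicate 3 lies nearest the tumours, as for Kif5c at 59.1 CPM against 1.96 and 4.30 in the other two.

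Oncofetal markers were higher in the tumours as a group: 12 of 14 tested members were called higher and 0 lower, with a median log2 fold change of 2.60. Afp, the fetal counterpart of albumin, was at 151, 384 and 539 CPM against 0.873, 8.596 and 155 (log2 fold change 4.48 ± 1.24, adjusted p 0.00538). The tissues overlapped for Afp, as non-tumour replicate 3 was above tumour replicate 4, and without it the change was 6.22. Gpc3, a cell-surface proteoglycan used to diagnose liver cancer, overlapped in the same way, at 215, 342 and 301 CPM against 4.48, 4.94 and 263 (3.78 ± 1.15). Prom1, which encodes the progenitor marker CD133, was at 54.05, 58.8 and 45.98 CPM against 0.764, 1.504 and 10.9 without overlap (3.84 ± 0.63). Akr1c18, an enzyme that inactivates progesterone, was at 169, 180.2 and 205 CPM against 0.873, 10.3 and 82.4 (3.94 ± 1.10). Without non-tumour replicate 1 the calls of Afp, Gpc3 and Akr1c18 were lost, with changes of 3.03, 2.83 and 2.59 and adjusted p of 0.0581, 0.0725 and 0.0655, and that of Gpc3 also without non-tumour replicate 2 (adjusted p 0.0785). The count of members called higher was 6 without non-tumour replicate 1 and 7 without tumour replicate 5. Igf2bp3, among the 12 and named after its value was seen, reached 1 CPM only in the tumours and so had to differ to be included. Tspan8 and Cd44 were tested and not called. Tspan8, at 220.5, 134.1 and 88.07 CPM against 2.62, 15.26 and 57.14, had all tumours above all non-tumour libraries. Lin28b and Sall4, also listed, were below the level tested. Igf2 and Dlk1, fetal growth genes often raised in liver tumours, reached at most 1.23 and 1.49 CPM in these 6 libraries. Igf2 overlapped between the tissues, whereas Dlk1 was at 0.693, 1.49 and 1.23 CPM in the tumours and listed at 0 in all 3 non-tumour libraries.

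Of the imprinted growth genes, 3 of 8 tested were called higher and 1 lower, with a median of 0.90. Grb10, which restrains insulin and IGF receptors, was at 61.4, 41.1 and 45.8 CPM against 10.3, 10.96 and 13.5 (log2 fold change 1.99 ± 0.39, adjusted p 2.89e-04). Peg3 was at 20.4, 55.98 and 32.3 CPM against 7.31, 7.31 and 9.52 (1.93 ± 0.63) and Peg10 at 4.71, 20.6 and 7.36 against 3.27, 0.645 and 3.42 (1.69 ± 0.55). Without tumour replicate 5, the highest library for both, neither was called (adjusted p 0.0805 and 0.126), which leaves 1 member called higher; Peg10 was also lost without non-tumour replicate 2 (0.117) and with limma-voom (0.0604). The proteoglycan gene Dcn, the member called lower, was at 96.7, 141 and 88.7 against 299, 260.4 and 212 CPM (-1.25 ± 0.50). That call was lost without any one of 5 libraries, the exception being tumour replicate 5, with adjusted p of 0.058 to 0.131.

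Mitosis genes were higher in the tumours, while genes of DNA replication were mostly not called. The log2 fold change was above 0 for all 26 mitosis genes (median 1.41); 15 were called higher and 0 lower, and the 3 tumours lay above all non-tumour libraries for 22 of them. Mki67, whose protein coats chromosomes of dividing cells, was at 92.99, 122 and 82.8 CPM against 18.1, 22.1 and 17.7 (log2 fold change 2.29 ± 0.64, adjusted p 0.00571). Cenpf and Cenpe, kinetochore proteins, were at 18.02, 30.3 and 19.2 CPM against 3.06, 4.51 and 3.62 and at 14.1, 17.3 and 10.8 against 2.73, 3.87 and 1.76. Tpx2, which assembles the spindle, changed by 1.88 ± 0.57, and Cdk1, the mitotic kinase, at 8.59, 13.8 and 6.74 CPM against 4.04, 3.87 and 3.42, was not called (adjusted p 0.0856). The number called was sensitive to the libraries: 8 without non-tumour replicate 3, 9 without non-tumour replicate 2, 9 and 7 without tumour replicates 4 and 5, and 8 with limma-voom. Over all genes the number called higher fell as well, from 3159 to 2688, 2252, 2825, 2488 and 2963 in the same order. The list median ran from 1.16 to 1.54 as each library was left out and was 1.73 with limma-voom. Cenpe lost its call without non-tumour replicate 3 or tumour replicate 5 (adjusted p 0.0531 and 0.05). In the list of DNA replication and G1/S genes 2 of 22 were called higher and 1 lower, with a median of 0.21. Ccnd1, the cyclin of G1 entry, was at 201, 134 and 179.8 CPM against 38.7, 20.8 and 41.4 (2.36 ± 0.40) and Ccne1 at 12.1, 7.07 and 11.9 against 2.07, 1.504 and 5.38 (1.59 ± 0.44). Mcm10, a replication initiation factor, went the other way, at 6.37, 8.56 and 8.99 CPM against 89.4, 85.7 and 42.96 (-2.98 ± 0.36, adjusted p 1.36e-06). Pcna, the replication clamp, at 25.1, 23.6 and 22.1 CPM against 29.9, 27.9 and 27.5, and the helicase gene Mcm2, at 12.5, 14.9 and 14.7 against 9.06, 9.89 and 6.83, were not called. In bulk tissue, more or fewer cells of a kind and more or less RNA per cell cannot be told apart, here or for any cell type below.

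Genes of late cell cycle are known to carry CCAAT boxes, bound by NF-Y, and cell cycle genes homology regions with the core TTTGAA, bound by the DREAM and MuvB complexes, close to their start sites. The 250 bases before the start were therefore read from RefSeq promoters (GRCm38.p6) on both strands. RefSeq promoters were matched for 12 of the 15 mitosis genes called higher, with 13 start sites; CCAAT or its reverse complement ATTGG stood in 84.6% of these windows, TTTGAA or TTCAAA in 38.5%, and both in 38.5%. Of the 9 windows of tested mitosis genes that were not called, 77.8%, 33.3% and 33.3% held them. Over the 12602 promoters of all genes tested the shares were 35.3%, 11% and 4.09%, and the 2 motifs do not overlap each other. These counts describe letters in a window and show no binding. The windows of 3 genes called higher that hold both motifs are printed 5′ to 3′ on the gene's strand, with the matches on either strand in capitals.
Mki67 (chr7:135716380-135716629, minus strand): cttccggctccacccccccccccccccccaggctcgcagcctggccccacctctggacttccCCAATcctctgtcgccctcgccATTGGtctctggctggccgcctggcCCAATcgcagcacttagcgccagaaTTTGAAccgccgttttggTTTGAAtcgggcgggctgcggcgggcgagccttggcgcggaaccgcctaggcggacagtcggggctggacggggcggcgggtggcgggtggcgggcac
Ccnb2 (chr9:70421555-70421804, minus strand): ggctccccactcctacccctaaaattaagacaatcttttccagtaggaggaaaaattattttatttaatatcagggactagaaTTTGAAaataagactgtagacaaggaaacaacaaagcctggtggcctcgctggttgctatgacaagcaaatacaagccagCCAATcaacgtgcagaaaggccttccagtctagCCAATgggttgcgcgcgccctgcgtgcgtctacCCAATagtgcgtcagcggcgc
Kif11 (chr19:37376132-37376381, plus strand): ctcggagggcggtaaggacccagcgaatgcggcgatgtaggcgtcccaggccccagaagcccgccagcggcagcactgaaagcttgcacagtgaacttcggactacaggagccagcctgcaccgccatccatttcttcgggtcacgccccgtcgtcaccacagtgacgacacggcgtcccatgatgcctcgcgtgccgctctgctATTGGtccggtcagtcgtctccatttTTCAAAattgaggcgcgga
Mki67 has 3 CCAAT and 2 TTTGAA matches, at 188, 166 and 141 and at 116 and 98 bases before its start. Ccnb2, a mitotic cyclin, has 3 CCAAT matches at 87, 54 and 21 bases and TTTGAA at 167, and Kif11, a spindle motor, has CCAAT at 45 and TTTGAA at 19. Ccnb2 was at 6.51, 9.49 and 7.56 CPM against 1.86, 1.93 and 1.76 and Kif11 at 12.2, 16.2 and 7.15 against 3.38, 3.87 and 3.21; both were chosen for printing after their values were seen.

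Targets of p53 moved both ways, with 8 of 20 called higher and 4 lower (median 0.54), against 25.0% and 17.9% of all genes. The death receptor gene Tnfrsf10b was at 13.3, 9.49 and 12.1 CPM against 0.655, 0.860 and 2.79 (log2 fold change 2.46 ± 0.36, adjusted p 1.10e-05). Cdkn1a, the p21 inhibitor of cyclin-dependent kinases, was at 41.02, 35.2 and 23.9 against 4.58, 5.16 and 21.2 (1.88 ± 0.56), and Mdm2, which degrades p53, at 80.7, 81.3 and 70.7 against 42.02, 39.97 and 50.4 (0.80 ± 0.22). Gdf15, a stress hormone, was called lower at 9.56, 20.5 and 15.5 CPM against 87.6, 55.2 and 18.7, with tumour replicate 5 above non-tumour replicate 3 (-1.57 ± 0.59). Phlda3, a repressor of Akt, changed by 1.81 ± 0.59. Without non-tumour replicate 2 only 5 members were called higher, and Cdkn1a and Phlda3 were then at adjusted p 0.056 and 0.0795. Cdkn1a was also lost without non-tumour replicate 1 (0.0561), and Gdf15 without any one of 4 libraries (non-tumour replicates 1 and 2, tumour replicates 4 and 6; adjusted p 0.0653 to 0.18). The other members called lower, named after their values were seen, were Ei24, Fas and Perp.

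Among 14 targets and factors of the Hippo pathway, 5 were called higher and 0 lower (median 0.56). Tead4 and Tead1, the DNA-binding partners of YAP, were at 4.71, 6.14 and 4.904 CPM against 0.764, 0.215 and 1.14 and at 36.8, 28.4 and 35.9 against 10.8, 9.79 and 18.8. Ajuba, an inhibitor of the LATS kinases, was at 29.9, 28.6 and 27.8 against 12.3, 5.37 and 8.59 (log2 fold change 1.67 ± 0.41, adjusted p 0.00203). Ankrd1, named after its value was seen and at 1 CPM or more only in the tumours, changed by 2.08, and Spp1 (osteopontin), at 193, 245 and 216 CPM against 46.7, 39.3 and 133, by 1.78 ± 0.64. Spp1 lost its call without non-tumour replicate 1 or 2 or tumour replicate 5 or 6 (adjusted p 0.0594 to 0.124) and Tead1 without non-tumour replicate 2 (0.0599), where 3 members were called.

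**Figure D3:**
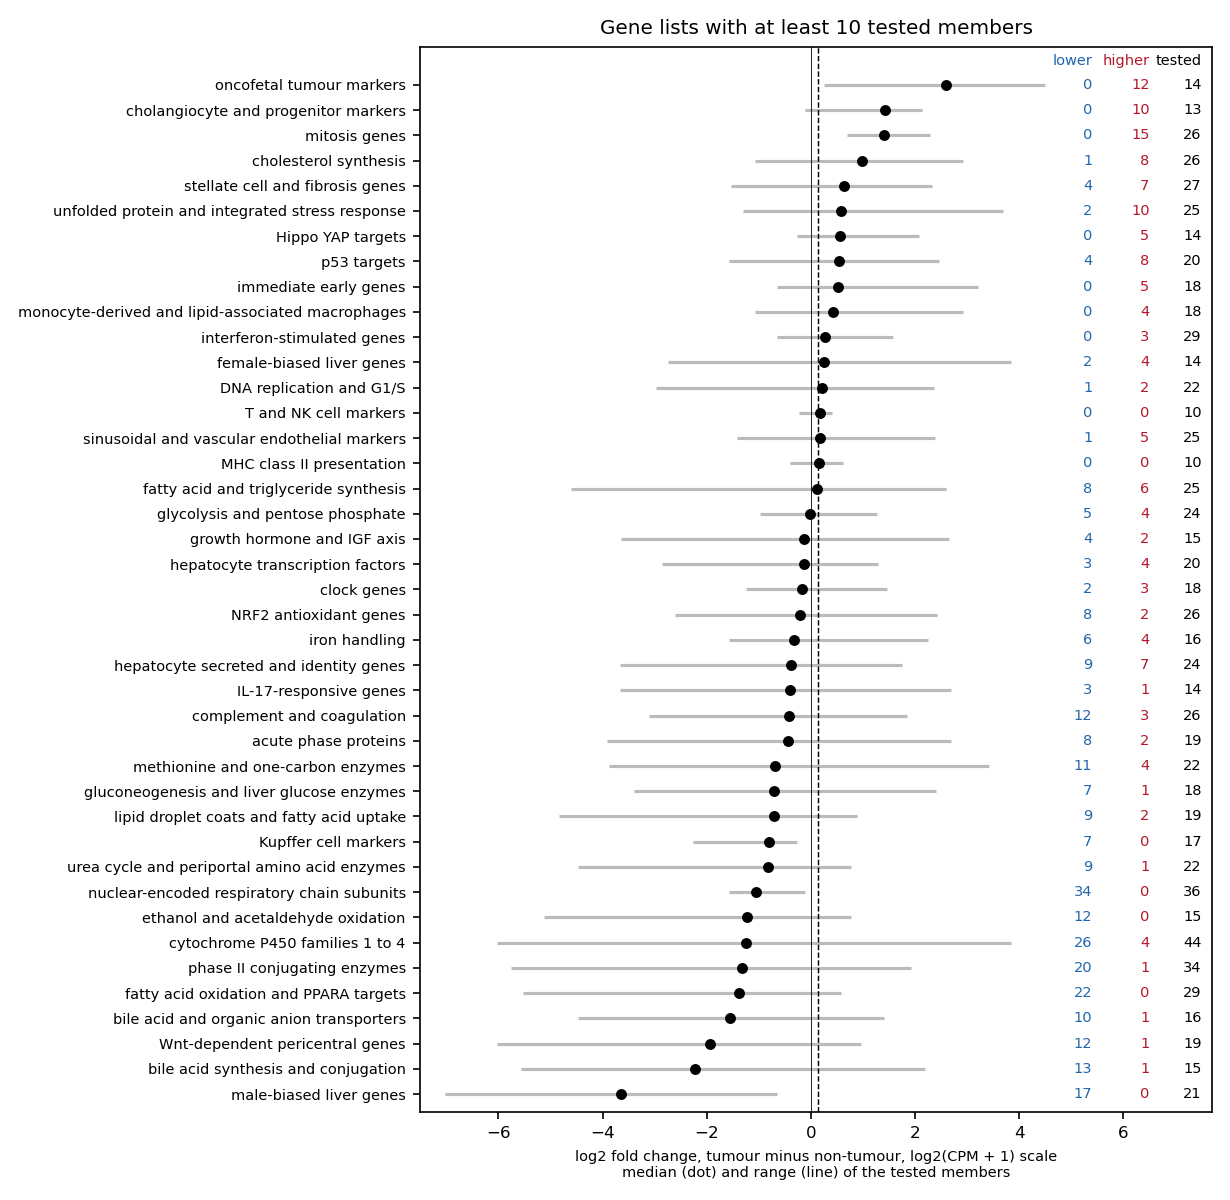
Median (dot) and range (grey line) of the log2 fold change of the tested members of each gene list with at least 10 of them, with the numbers called lower, called higher and tested at the right. The dashed line is the median of all genes, 0.14; medians run from -3.64 for male-biased liver genes to 2.60 for oncofetal tumour markers.

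Hepatocyte identity was split. Of 24 secreted and identity genes 7 were called higher and 9 lower (median -0.38). Albumin (Alb) was at 130070, 98498 and 105920 CPM in the tumours against 27330, 39489 and 58784 (log2 fold change 1.47 ± 0.37, adjusted p 0.00252); the call was lost when all genes were tested without a filter (adjusted p 0.292). Apoa1, the main protein of HDL, was at 14268, 12377 and 14763 against 3501, 3472 and 5662 (1.75 ± 0.26). Enzymes of the list were among those called lower: Hpd, of tyrosine breakdown, was at 64.4, 192 and 105 CPM against 1414, 1522 and 1287 (-3.67 ± 0.49), and G6pc, which releases glucose, at 48.8, 212 and 44.8 against 1141, 1175 and 425 (-3.40 ± 0.60). Ttr, transthyretin, was called lower at 2067, 1872 and 1882 CPM against 3600, 3983 and 3252, but not with the length trend taken out (adjusted p 0.0557). After rescaling and without non-tumour replicate 2, 4 members each were called higher. Of 20 hepatocyte transcription factors 4 were called higher and 3 lower, against 25.0% and 17.9% of all genes. Nr1i3, the xenobiotic receptor CAR, was at 13.9, 15.8 and 32.4 CPM against 114, 205 and 134 (-2.86 ± 0.50), Nr1h4, the bile acid receptor FXR, at 41.9, 52.1 and 58.6 against 136, 116 and 95.03 (-1.17 ± 0.25) and Esrrg at 0.416, 0.744 and 0 against 4.91, 8.81 and 6.52. Esrrg reached 1 CPM only in non-tumour liver and so had to differ to be included. Foxa3, Foxa1 and Prox1, named after their values were seen, were among the members called higher, and the count was 1 without non-tumour replicate 2 and 2 without tumour replicate 6. The number called lower was 5 without non-tumour replicate 1 or 3 or tumour replicate 6, and 6 after rescaling. Hnf4a, at 637, 669 and 682 CPM against 501, 525 and 649, and Cebpa, at 108, 145 and 186 against 299, 189.5 and 144, were not called, although Cebpa passed without non-tumour replicate 3 (-0.73, adjusted p 0.0265) or tumour replicate 6 (0.0467).

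Of the secreted defence proteins, more were called lower than higher, and many were not called. Of 26 complement and coagulation genes 12 were called lower and 3 higher (median -0.41), and of 19 acute phase proteins 8 lower and 2 higher (median -0.45, and -0.19 with the length trend taken out). C9 and C6, of the membrane attack complex, were at 62.1, 66.96 and 45.98 CPM against 717, 420.1 and 428 (log2 fold change -3.11 ± 0.41) and at 33.3, 65.5 and 28.4 against 393, 158 and 156 (-2.40 ± 0.55). The mannose-binding lectins Mbl1 and Mbl2 changed by -2.37 ± 0.31 and -2.37 ± 0.40, and F7, the initiating clotting factor, was at 48.1, 47.99 and 46.4 CPM against 56.3, 47.7 and 51.2. The serum amyloids Saa1 and Saa2 were at 20.2, 24.7 and 9.4 CPM against 272, 82.1 and 506 and at 9.28, 10.97 and 5.72 against 223, 45.6 and 269.6, changes of -3.66 ± 0.64 and -3.91 ± 0.73. Orm1, an orosomucoid, was at 148, 214 and 104 against 570.5, 408 and 612 (-1.80 ± 0.68, adjusted p 0.0347), a call lost without any one library other than tumour replicate 5 (adjusted p 0.0523 to 0.119). Saa3 changed by -2.98 ± 0.55, and Orm3 by -3.39 ± 0.66, with all 3 tumours at or under 3 counts; Orm3 was included through its non-tumour levels alone. Members called higher were F11, Kng1 and Cfi and, of the acute phase list, Serpina3n and Cp, named after their values were seen; 5 acute phase members were called higher without non-tumour replicate 3.

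In the lists of both liver zones more genes were called lower than higher. Of 19 Wnt-dependent pericentral genes 12 were called lower and 1 higher, with a median of -1.93. Glul, glutamine synthetase, which marks the innermost pericentral cells, was at 99.5, 176 and 59.9 CPM against 1712, 1369 and 1163 (log2 fold change -3.77 ± 0.64, adjusted p 6.17e-05). Cyp2e1, which activates DEN, was at 168, 446 and 124 CPM against 7575, 8756 and 6150 (-5.13 ± 0.49, adjusted p 1.03e-07). The glutamate transporter Slc1a2 was at 11.9, 33.9 and 4.904 against 401, 362 and 293 (-4.66 ± 0.80) and Oat, ornithine aminotransferase, at 46.8, 84.1 and 17.6 against 1694, 1629 and 943 (-5.02 ± 0.71); Oat overlaps an annotated transcript of Fgfr2 on its strand. Axin2, a general Wnt target, was at 1.25, 3.35 and 1.23 CPM against 14.2, 4.51 and 3.83 and was not called (adjusted p 0.087). The Wnt factor gene Tcf7 was the member called higher (0.97, named after its value was seen); 0 members were called higher without non-tumour replicate 2 or tumour replicate 5 or 6. Of 22 urea cycle and periportal amino acid enzymes 9 were called lower and 1 (Sdsl, named after its value was seen) higher, with a median of -0.82; 0 were called higher without non-tumour replicate 1 or 2 or tumour replicate 4 or 6. Prodh, proline oxidase, was at 10.7, 9.67 and 3.68 against 193, 189 and 170.2 (-4.47 ± 0.46), the periportal Cyp2f2 at 33.1, 26.4 and 29.5 against 415, 491 and 286 (-3.67 ± 0.75), and the urea cycle enzymes Otc and Cps1 changed by -1.97 ± 0.44 and -1.03 ± 0.30. Gls2, the liver glutaminase, at 158, 150.5 and 154 CPM against 224, 154 and 171, was not called.

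Drug and alcohol metabolism was lower across enzyme classes. Of 44 cytochrome P450 genes of families 1 to 4, 26 were called lower and 4 higher (median -1.25). Cyp3a11, the main drug-metabolizing enzyme of family 3, was at 418, 632 and 119.5 CPM against 2049, 5595 and 2784 (log2 fold change -3.32 ± 0.73). The members called higher were Cyp2a4 and Cyp2b9, described with the sex-biased genes, and Cyp3a44 (at 1 CPM or more only in the tumours) and Cyp2d26, named after their values were seen; 1 was called higher without non-tumour replicate 1 and 2 each without tumour replicate 4 or 6. Of 34 phase II enzymes 20 were called lower and 1 higher (median -1.32). The bile acid sulfotransferase Sult2a8 was at 4.71, 21.02 and 5.72 CPM against 741, 623 and 289.8 (-5.76 ± 0.78), Ugt3a1 at 2.49, 9.49 and 2.04 against 104, 149 and 93.7 (-4.57 ± 0.48) and Nnmt, nicotinamide N-methyltransferase, at 6.51, 7.07 and 2.25 against 121, 95.2 and 115 (-4.25 ± 0.51). Ugt1a9 (-4.22) shares exons with the other Ugt1a genes, so its own value is uncertain, and with limma-voom it was not called (adjusted p 0.0675). Gstp2, named after its value was seen, was the member called higher (1.92); 0 were without non-tumour replicate 3 or tumour replicate 4 or 6, and 2 without tumour replicate 5. Of 15 genes of ethanol and acetaldehyde oxidation 12 were called lower and 0 higher (median -1.23). Adh1, the main liver alcohol dehydrogenase, was at 706, 708 and 1191 CPM against 1555, 1896 and 1654 (-1.01 ± 0.19) and Aldh2, which oxidizes acetaldehyde in mitochondria, at 572, 633 and 761 against 1468, 1262 and 1139 (-0.98 ± 0.15). Aldh1a1, a cytosolic retinal and acetaldehyde dehydrogenase, was at 156, 155 and 170.4 against 1778, 2453 and 1761 (-3.61 ± 0.38), and Adh4 and Aldh1a7 changed by -3.34 and -2.82.

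Bile acid synthesis was among the lowest lists, with 13 of 15 genes called lower, 1 higher and a median of -2.23. Cyp7a1, the rate-limiting enzyme of bile acid synthesis, was at 7.34, 15.3 and 4.495 CPM against 403, 343 and 191 (log2 fold change -5.04 ± 0.80, adjusted p 3.10e-05). Cyp8b1, which makes cholic acid, was at 2.63, 5.95 and 5.31 CPM against 204, 430.0 and 188 (-5.56 ± 0.70), Cyp7b1, of the alternative pathway, at 3.33, 11.5 and 2.66 against 418, 159 and 99.1 (-5.02 ± 0.84), and Akr1c6 changed by -3.65 ± 0.43. Cyp39a1, an oxysterol hydroxylase named after its value was seen, was the member called higher (2.19). Of 16 transporters of bile acids and organic anions 10 were called lower and 1 higher (median -1.56). The uptake transporters Slc10a1 (NTCP) and Slco1b2 were at 18.7, 34.97 and 53.7 CPM against 249, 346 and 250.4 (-3.04 ± 0.57) and at 59.9, 167 and 62.9 against 1983, 2475 and 1453 (-4.47 ± 0.52). Slco2b1 and Slco1a1 changed by -3.15 and -3.64, and the export pump Abcb11 was at 184, 317 and 161 against 656, 617 and 459 (-1.43 ± 0.36). The efflux pump Abcb1a, named after its value was seen, was called higher (1.41), and 0 members were without non-tumour replicate 1 or 2 or tumour replicate 5 or 6.

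The lists of lipid genes are given by pathway. Of 26 cholesterol synthesis genes and related SREBP2 targets 8 were called higher and 1 lower, with a median of 0.98. Over all genes 25.0% were called higher. The tumours lay above all non-tumour libraries for 7 of the 26, against 33.2% of all genes. Dhcr7, of the last step, was at 97.3, 43.9 and 108 CPM against 9.496, 10.7 and 30.02 (log2 fold change 2.33 ± 0.47, adjusted p 3.94e-04). For Sqle, squalene epoxidase, at 114, 44.5 and 156 CPM against 1.96, 10.3 and 55.3, and Lss, at 109, 58.6 and 151 against 17.4, 24.9 and 60.5, tumour replicate 5 lay below non-tumour replicate 3. Lss changed by 1.70 ± 0.48 and Sqle by 2.92 ± 1.01, but Sqle was not called without non-tumour replicate 1 (1.89, adjusted p 0.159), non-tumour replicate 2 (0.0604) or tumour replicates 4 (0.0608) and 6 (0.084). The member called lower was Ebp (-1.07), named after its value was seen; 2 members were called lower without tumour replicate 6. The list medians ran from 0.62 to 1.35 as each library was left out.

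Of 25 genes of fatty acid and triglyceride synthesis 6 were called higher and 8 lower (median 0.13), against 25.0% and 17.9% of all genes. The sign of this median rested on single libraries: it was -0.35 without non-tumour replicate 1, -0.12 and -0.021 without tumour replicates 4 and 6, and 0.51 and 0.52 without non-tumour replicate 3 and tumour replicate 5. With the length trend taken out it was -0.22. Scd1, the main stearoyl-CoA desaturase of liver, was at 7072, 4529 and 4863 CPM against 17336, 23088 and 16730 (log2 fold change -1.81 ± 0.50), whereas its relative Scd2 was at 264, 191 and 297 against 26.3, 36.3 and 129 (2.28 ± 0.62). Thrsp, an inducer of lipogenesis, was at 12.7, 8.93 and 9.4 CPM against 116, 495 and 348 (-4.60 ± 0.67), and Pnpla3, a lipid droplet lipase, at 14.3, 4.84 and 21.05 against 0.437, 0.430 and 3.31 (2.60 ± 0.74). Fasn, fatty acid synthase, at 687, 362 and 896 CPM against 373, 339 and 555, was not called. Of 29 fatty acid oxidation genes and PPARA targets 22 were called lower and 0 higher, with a median of -1.38. Cyp4a14, a PPARA-driven omega-hydroxylase, was at 5.404, 1.86 and 1.63 CPM against 25.8, 472 and 369.9 (-5.52 ± 1.10), with non-tumour replicate 1 far below the other two. Acaa1b, a peroxisomal thiolase, was at 164, 256 and 315 against 1696, 3338 and 1360 (-3.06 ± 0.41). Acot1 and Acot3, acyl-CoA thioesterases, changed by -2.98 and -2.75, the latter at 1 CPM or more only in non-tumour liver and not called without non-tumour replicate 2 (adjusted p 0.0625). Cpt1a, which lets fatty acids into mitochondria, was at 595, 654 and 827 CPM against 671, 702 and 696 and not called (log2 fold change -0.01 ± 0.27).

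Of 19 genes of lipid droplets and fatty acid uptake 9 were called lower and 2 higher (median -0.71). The median was -0.31 without tumour replicate 5, -0.33 without non-tumour replicate 2 and -1.15 without non-tumour replicate 1. Fitm1 and Plin4, droplet proteins, were at 0.416, 2.604 and 1.23 CPM against 50.6, 84.2 and 59.2 (log2 fold change -4.84 ± 0.49) and at 21.1, 14.7 and 7.76 against 91.7, 179 and 139 (-3.20 ± 0.62). G0s2, an inhibitor of triglyceride lipase, was at 15.9, 16.2 and 16.96 against 108, 109.8 and 92.2 (-2.59 ± 0.48). Cd36, the fatty acid translocase, was at 109.6, 87.04 and 108 against 206, 493 and 368 (-1.72 ± 0.52), and Cidea at 0.831, 1.302 and 0.613 against 1.09, 47.7 and 14.5 (-2.62 ± 0.80). Without non-tumour replicate 2, the highest for both, neither was called (-1.44, adjusted p 0.0632, and -1.59, adjusted p 0.126). Plin3 and Abhd5, named after their values were seen, were called higher with all libraries; 0 members were without non-tumour replicate 2, and 1 was without non-tumour replicate 1 or any one tumour. Of 24 glycolysis and pentose phosphate genes 4 were called higher and 5 lower (median -0.02), against 25.0% and 17.9% of all genes. In this list 2 were called higher without non-tumour replicate 1, and 3 lower without non-tumour replicate 2 or tumour replicate 4 or 5. Pgd, of the pentose phosphate pathway, was at 66.4, 58.4 and 82.1 CPM against 26.1, 27.5 and 29.5 (1.27 ± 0.31). Pgk1 was at 177, 155 and 154 against 274, 365 and 322 (-0.97 ± 0.17). Hk2 and Pkm, the isoenzymes often raised in tumours, were at 5.27, 9.3 and 7.36 CPM against 10.5, 7.52 and 8.59 and at 45.2, 68.8 and 66 against 63.2, 46.6 and 55.3, with overlap and no call. Of 18 genes of gluconeogenesis and glucose handling 7 were called lower and 1 higher (median -0.71). Fbp1, of gluconeogenesis, was at 313, 373 and 332 CPM against 1046, 1308 and 1003 (-1.71 ± 0.25). The mitochondrial Pck2 was at 27.6, 31.4 and 20.6 against 4.803, 2.58 and 5.59 (2.40 ± 0.33), and the cytosolic Pck1, at 1345, 2571 and 1360 against 2931, 2685 and 2997, was not called (adjusted p 0.062), though it passed without tumour replicate 5 (-1.08, adjusted p 0.0192).

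Within one-carbon metabolism, Psat1 was called higher while enzymes of the liver methionine cycle were called lower. Phgdh and Psat1, the first 2 enzymes of serine synthesis, were at 19.2, 17.1 and 10.4 CPM against 0.327, 0.430 and 0.828 (log2 fold change 3.41 ± 0.49) and at 63.2, 42.2 and 49.9 against 2.73, 1.72 and 20.4 (3.12 ± 0.68). Phgdh reached 1 CPM only in the tumours and so had to differ to be included, and it was at or under 3 counts in 2 of the non-tumour libraries. For Psat1 all tumours lay above all non-tumour libraries. Bhmt, which remethylates homocysteine, was at 270.0, 282 and 234 CPM against 3011, 5116 and 3649 (-3.87 ± 0.59), Gnmt, which uses up methyl groups, at 90.2, 102 and 88.9 against 794, 861 and 627 (-3.00 ± 0.51), and Mat1a, the liver form of the S-adenosylmethionine-making enzyme, at 972, 875 and 996 against 2754, 3483 and 3288 (-1.74 ± 0.29). Over the list 4 of 22 were called higher and 11 lower (median -0.69); the other two called higher, Psph and Mthfd2, were named after their values were seen.

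Stress genes rose in part. Of 25 genes of the unfolded protein and integrated stress response 10 were called higher and 2 lower (median 0.57). Trib3, an ATF4 target, was at 74, 121 and 79.7 CPM against 5.35, 4.94 and 8.18 (log2 fold change 3.69 ± 0.41, adjusted p 5.37e-07), Ddit3 (CHOP) at 20.8, 20.5 and 15.1 against 7.204, 7.95 and 7.14 (1.22 ± 0.31) and Aldh18a1, of proline synthesis, at 17.3, 17.3 and 14.9 against 6.003, 4.08 and 4.04 (1.63 ± 0.42). Asns, asparagine synthetase, was at 41.3, 40.4 and 13.9 against 8.405, 1.72 and 11.5 (2.12 ± 0.59) and not called without non-tumour replicate 2 (adjusted p 0.0667). Hspa5, the chaperone BiP, at 1461, 1002 and 1240 CPM against 665, 1056 and 1014, was not called. Chac1 and Herpud1, named after their values were seen, were called lower with all libraries, 1 member was without non-tumour replicate 3 or tumour replicate 5, and 0 were without non-tumour replicate 2 or tumour replicate 6. Of 26 NRF2 antioxidant genes 2 were called higher and 8 lower (median -0.21). The malic enzyme Me1 was at 47.3, 33.9 and 48.6 CPM against 106, 182 and 136 (-1.67 ± 0.34), Aox1 at 60.1, 70.1 and 91.5 against 181, 272 and 174 (-1.48 ± 0.33) and Gsta2, a glutathione transferase, at 5.43, 3.94 and 6.01 against 33.6, 54.3 and 25.3 (-2.61 ± 0.80), the last not called without non-tumour replicate 2 (adjusted p 0.0516) or with limma-voom (0.0601). Nqo1, at 27.99, 25.1 and 43.5 CPM against 9.28, 22.8 and 16.7, and Gclc, at 298, 418 and 477 against 420.4, 441 and 327, both classic NRF2 targets, were not called. With only the 6 libraries in the fit 7 members were called higher. Of 16 iron genes 4 were called higher and 6 lower, against 25.0% and 17.9% of all genes. The ferritin light chain Ftl1 was at 1042, 1307 and 1354 CPM against 4232, 3900 and 2930 (-1.57 ± 0.25). The zinc and iron importer Slc39a14 was at 699, 609.5 and 604 against 229.7, 184 and 307 (1.43 ± 0.22). Id1, a target of BMP signals, was at 31.7, 19.3 and 23.7 against 3.82, 2.58 and 7.97 (2.24 ± 0.44). Hfe changed by -1.16 ± 0.19, and hepcidin (Hamp), at 58.3, 26.6 and 24.1 CPM against 110.5, 10.1 and 35.9, was not called. After rescaling and without non-tumour replicate 2, 2 iron genes each were called higher.

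Subunits of the respiratory chain encoded in the nucleus were lower almost throughout: 34 of 36 were called lower and 0 higher, the 3 tumours lay below all non-tumour libraries for all 36, and the median was -1.05. Ndufb5 and Ndufb9 of complex I were at 23, 21.2 and 20.8 CPM against 63.5, 76.1 and 59.6 (log2 fold change -1.56 ± 0.17) and at 46.01, 65.5 and 56.6 against 162, 182 and 143 (-1.52 ± 0.16). Sdhd of complex II was at 67.6, 66.03 and 62.7 against 163, 187 and 157 (-1.35 ± 0.19) and Atp5c1 of ATP synthase at 97.1, 94.5 and 97.5 against 256, 309 and 212 (-1.40 ± 0.16). Ndufa1 and Atp5j were the members not called. The same list, in the fit with the same genes, had medians of -0.52 in WT mice on HFD and -0.83 in labelled mice on HFD_alcohol, comparisons that share no library with this one. Most of these genes are short (median exonic length 2150 bases), and fold changes in this comparison followed gene length.

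Over all genes the median log2 fold change was -0.20 among the shortest of 5 equal length classes (median 1776 bases, 12.8% called higher and 31.9% lower) and 0.38 in the longest (37.9% and 9.33%). The same trend ran from -0.06 to 0.15 in WT mice on HFD and from -0.14 to 0.21 in labelled mice on HFD_alcohol. In single libraries the mean log2 level of short minus that of long genes was -1.12 to -1.24 in the tumours and -0.47 to -0.61 in non-tumour liver (exact permutation p 0.1, two-sided, the smallest that 3 against 3 allows; 0.12 adjusted over the 6 library summaries tested). With this trend taken out, a setting added after seeing the data, 33 of the 36 respiratory chain genes were still called lower, with a median of -0.91. Genes of the same length range outside the list had a median of -0.05, with 24.5% called lower. Ribosomal protein genes, also short, were called lower in 27 of 78 (median -0.24). Lars2, a mitochondrial tRNA synthetase gene chosen after its values were seen, was at 142.5, 1265 and 323.1 CPM in the tumours and 21.9, 67.5 and 46.4 in non-tumour liver. In WT mice on HFD it was at 16.1, 27.8 and 36.5 CPM in tumours and 20.7, 325.6 and 15.5 in non-tumour liver. WT tumour replicate 5, at 27.8 CPM, had a short minus long level of -1.17, within the range of the labelled tumours. Labelled tumours on HFD_alcohol were at 105.3 to 1418 CPM. The part of RNA quality or library preparation in these results was not tested.

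**Figure D4:**
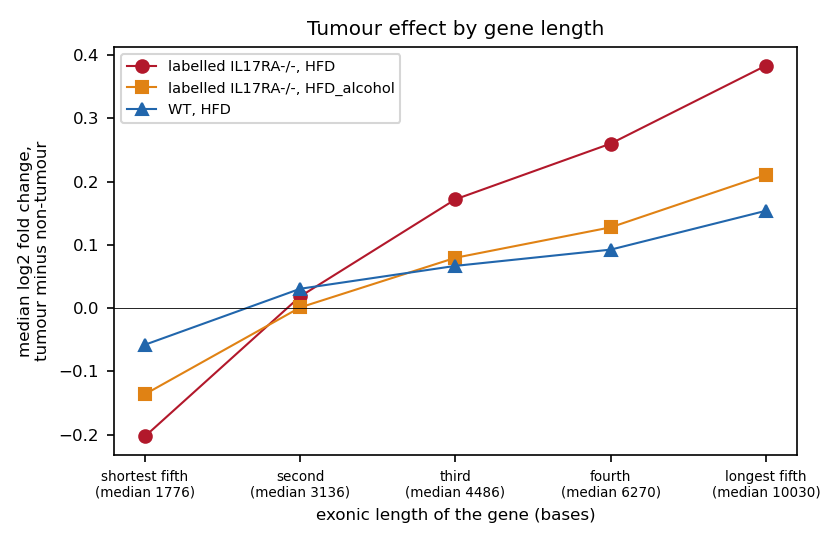
Median log2 fold change, tumour minus non-tumour, of genes in 5 classes of exonic length (median bases below each class), for the labelled mice on HFD (red circles), the labelled mice on HFD_alcohol (orange squares) and WT mice on HFD (blue triangles). All 3 lines rise with length, from -0.20 to 0.38 for the labelled mice on HFD.

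Male-biased liver genes, which depend on the pulses of growth hormone in males, had the lowest median of the lists (-3.64): 17 of 21 were called lower and 0 higher. Many of the 21 are Mup genes, near-identical copies among which reads may be split, and all of these were called lower. The count and the median therefore rest in large part on that family. Elovl3, a male-biased elongase, was at 0.693, 4.84 and 0.409 CPM against 135, 84.9 and 70.6 (log2 fold change -5.29 ± 0.95) and Mup20, the pheromone darcin, at 887, 3300 and 1424 against 12877, 4154 and 5656 (-2.06 ± 0.48). Non-tumour replicate 1 was the highest library for both, and no tumour reached the non-tumour range. Of 14 female-biased genes tested 4 were called higher and 2 lower (median 0.25), against 25.0% and 17.9% of all genes. Cyp2a4, a steroid hydroxylase, was at 3634, 1269 and 3834 CPM against 28.3, 217 and 951 (3.84 ± 1.13), Abcd2, a peroxisomal transporter, at 123, 184 and 198 against 9.71, 30.5 and 79.2 (2.47 ± 0.53) and Cyp2b9 at 341, 379 and 426 against 4.26, 231 and 131 (2.81 ± 1.11). Their lowest value was in non-tumour replicate 1, and without it Cyp2a4 and Cyp2b9 were not called (2.52, adjusted p 0.0819, and 1.13, adjusted p 0.394); 2 members then were. Cyp2b9 also lost its call without any one tumour library (adjusted p 0.0758 to 0.0956). The sexes of the mice are not given, no Y-linked gene was in the table, and the part of sex in these differences cannot be told apart from that of the tissue. In the growth hormone and IGF axis 4 of 15 genes were called lower and 2 higher, against 17.9% and 25.0% of all genes. The growth hormone receptor Ghr was at 86.9, 132 and 121 CPM against 717, 724 and 512 (-2.52 ± 0.26, adjusted p 2.94e-07), Igf1 at 34.6, 65.8 and 35.4 against 679.9, 540.2 and 453 (-3.64 ± 0.58), its carrier Igfals at 5.404, 8.93 and 4.904 against 114, 61.9 and 47.1 (-3.29 ± 0.67), and Igfbp1 at 1900, 2793 and 2501 against 160.3, 424 and 778 (2.65 ± 0.63). The prolactin receptor gene Prlr (-2.05) was the other member called lower and Igfbp2 (1.42) the other called higher, both named after their values were seen; 1 member was called higher without non-tumour replicate 2 or 3 or tumour replicate 5 or 6.

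**Figure D5:**
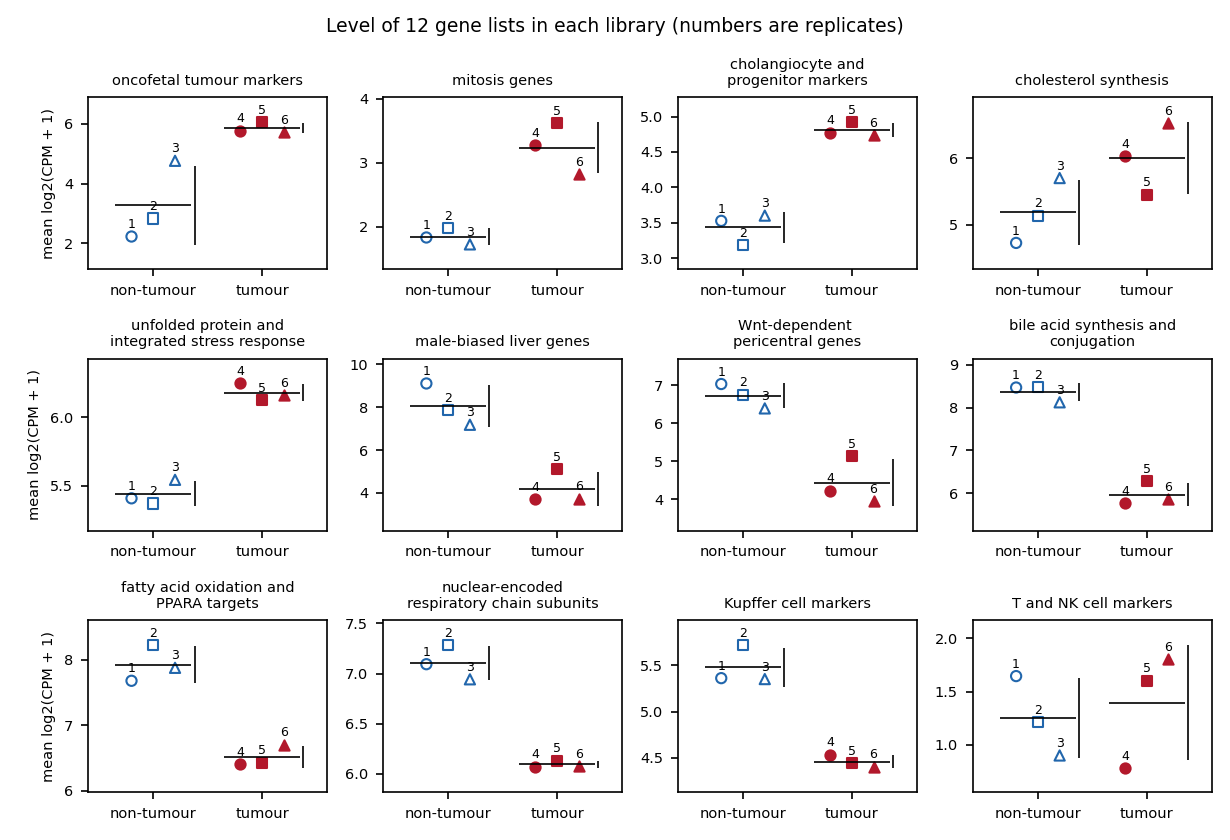
Mean log2(CPM + 1) of the tested members of 12 gene lists in each library, numbered by replicate, with the group mean (horizontal line) and ± 1 SD, n = 3 (vertical bar). For oncofetal tumour markers non-tumour replicate 3 (4.76) lies between the other non-tumour libraries (2.22 and 2.83) and the tumours, while T and NK cell markers overlap between the tissues.

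Markers of other cells of the liver were examined as summed levels and single genes. Cholangiocyte and progenitor markers were higher, with 10 of 13 called and a median of 1.42; the sums were 1265 to 1725 CPM in the tumours and 653 to 780.2 in non-tumour liver. Sox9, a biliary and progenitor factor, was at 11.1, 9.67 and 13.7 CPM against 1.201, 1.504 and 3.93 (log2 fold change 2.04 ± 0.29), the keratin Krt23 at 10.3, 14.5 and 16.8 against 1.201, 3.01 and 3.21 (2.13 ± 0.44) and Krt19, the defining duct keratin, at 6.65, 6.696 and 1.02 against 0.437, 0.430 and 0.518 (1.75 ± 0.45). Krt19 reached 1 CPM only in the tumours, so its call was favoured by the filter. Krt7, Cftr and Cldn4, further duct markers, were below the level tested. Sox4, a progenitor factor, changed by 1.83 ± 0.38. All 17 Kupffer cell markers had a negative fold change; 7 were called lower, 0 higher and 10 not called, the median was -0.81 and the sums were 661 to 758 CPM in the tumours and 1092 to 1365 in non-tumour liver. Clec4f, the most specific of them, was at 59.9, 52.8 and 30.9 CPM against 117, 193 and 137 (-1.64 ± 0.44), Vsig4 at 16.5, 8.18 and 12.9 against 26.3, 51.8 and 46.4 (-1.65 ± 0.48), Timd4 at 0.277, 0.558 and 1.23 against 2.84, 11.2 and 4.45 (-1.95 ± 0.45) and the haemoglobin scavenger Cd163 at 3.05, 1.86 and 2.25 against 5.68, 21.3 and 26.8 (-2.26 ± 0.45). The number called was 4 without tumour replicate 6 and 15 with only the 6 libraries in the fit.

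Against 25.0% higher and 17.9% lower over all genes, the list of monocyte-derived and lipid-associated macrophages had 4 of 18 called higher and 0 lower (median 0.42). These were the tetraspanins Cd63, at 99.8, 87.6 and 93.4 CPM against 12.2, 5.59 and 21.6 (log2 fold change 2.91 ± 0.57), and Cd9 (1.64 ± 0.41), Fabp5 (1.95 ± 0.56) and Spp1, all of which hepatocytes or duct cells can also express. Trem2 and Gpnmb, the defining receptors of these macrophages, were at 4.16, 4.28 and 2.86 CPM against 8.405, 3.22 and 3.62 and at 21.1, 28.1 and 22.5 against 70.6, 4.73 and 14.4, with overlap and no call. Of 25 listed T and NK cell markers 10 were tested and 0 called, with a median of 0.18 and sums of 12.2 to 41.1 CPM in the tumours and 13.4 to 31.6 in non-tumour liver. Cd3e, of the T cell receptor complex, was at 0.831, 1.12 and 1.23 CPM against 1.09, 0.645 and 0.104. Of 7 B and plasma cell markers tested, all had a fold change above 0 (median 0.45) and none was called; the sums were 65.2 to 107 CPM in the tumours and 6.45 to 42.03 in non-tumour liver, without overlap. Most of each tumour sum was Jchain, the joining chain of secreted immunoglobulins, named after its value was seen, at 73.2, 83.1 and 51.1 CPM against 18.3, 0.645 and 33.2 (2.74 ± 1.16, adjusted p 0.0589). Without non-tumour replicate 3, Jchain was called higher (3.61, adjusted p 0.0266). No member of the neutrophil (4, median -0.09) or MHC class II lists (10, median 0.16) was called; Cd74, the invariant chain, was at 146, 218 and 244 CPM against 285, 90.9 and 111. Of 29 interferon-stimulated genes 3 were called higher and 0 lower (median 0.27): Isg15 (1.57), Oas1a (1.25) and Stat2, at 61.7, 87.6 and 78.1 CPM against 51.7, 30.3 and 33.2 (0.99 ± 0.25). Stat2 was called without each library, while Isg15 lost its call without non-tumour replicate 2 or 3 or tumour replicate 5 or 6 (adjusted p 0.0538 to 0.0617) and Oas1a without any one library except non-tumour replicate 1 (adjusted p 0.0552 to 0.165).

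Endothelial markers showed 5 of 25 called higher and 1 lower (median 0.18), against 25.0% and 17.9% of all genes. Stab1 and Gpr182, named after their values were seen, were among those called higher. Esm1, made by sprouting vessels, was at 18.4, 20.1 and 53.9 CPM against 1.31, 4.08 and 12.5 (log2 fold change 2.38 ± 0.62), the capillary marker Cd34 at 6.097, 7.07 and 10.8 against 1.64, 2.36 and 4.55 (1.26 ± 0.45) and Egfl7 at 42.7, 45.4 and 54.8 against 27.8, 22.99 and 28.3 (0.83 ± 0.23). Rspo3, the Wnt amplifier made by central vein endothelium, was called lower at 2.91, 6.88 and 2.25 CPM against 11.4, 15.5 and 8.28 (-1.41 ± 0.40). Stab2, of sinusoids, at 172, 183 and 158 CPM against 135, 166 and 163, and Plvap, at 31.5, 48.7 and 54.8 against 58.2, 49 and 38.3, were not called. Cd34 lost its call without non-tumour replicate 1 or 2 or tumour replicate 6 (adjusted p 0.0752 to 0.107), and 3 members were called higher without non-tumour replicate 2, while 2 were called lower without tumour replicate 5. Of 27 stellate cell and fibrosis genes 7 were called higher and 4 lower (median 0.64), against 25.0% and 17.9% of all genes. Beside those described below, Reln, Col4a1, Col5a2 and Sparc were called higher and Hgf, Colec11 and Dcn lower. Des, Pdgfrb, Tagln, Col1a2, Col3a1, Timp1, Lox and Postn were among the 16 not called. Apart from Dcn, these genes were named after their calls were seen. Acta2, smooth muscle actin, was at 27.99, 17.9 and 16.8 CPM against 3.06, 2.36 and 4.76 (2.32 ± 0.51), and Fn1, fibronectin, which hepatocytes also secrete, at 5579, 6264 and 5983 against 2009, 1156 and 2872 (1.66 ± 0.27). Lrat, which stores retinol in quiescent stellate cells, was at 8.73, 22.5 and 23.3 against 57.5, 48.8 and 45.03 (-1.53 ± 0.46), a call lost without tumour replicate 4 (adjusted p 0.081). Col1a1, at 52.2, 122 and 125 CPM against 62.98, 6.66 and 16.4 (2.20 ± 0.89), overlapped and was not called without non-tumour replicate 2 or 3 or tumour replicate 5 or 6 (adjusted p 0.106 to 0.246). Without these same libraries 3 or 4 members were called higher, and 11 with only the 6 libraries in the fit; 2 were called lower without non-tumour replicate 1 or tumour replicate 4. Of the erythrocyte list Alas2, of haem synthesis, was called lower at 15.4, 18.1 and 15.3 CPM against 142, 87.3 and 69.04 (-2.48 ± 0.33). Cfd, adipsin, an adipocyte product also made in fatty liver, was listed at 0 in all 3 tumours and at 3.27, 112 and 23.9 CPM in non-tumour liver. Adipoq was below the level tested. The part of cell composition in the results for hepatocyte genes was not tested.

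Immediate early and clock genes were listed for their bearing on the time and manner of collection. Of 18 immediate early genes 5 were called higher and 0 lower (median 0.52). Over all genes 25.0% were called higher, near the share of this list, and 17.9% lower. Egr1 was at 114, 65.3 and 124 CPM against 10.04, 4.73 and 18.01 (log2 fold change 3.21 ± 0.51, adjusted p 2.92e-05), Klf4 at 20.2, 14.9 and 9.195 against 3.38, 3.01 and 3.52 (1.81 ± 0.47), Ier3 at 22.3, 14.3 and 24.5 against 7.42, 2.58 and 6.94 (1.75 ± 0.60) and Junb at 117, 281 and 233 against 93.5, 91.5 and 45.8 (1.42 ± 0.48). Ier3 lost its call without non-tumour replicate 2 or tumour replicates 4 and 6 (adjusted p 0.0583 to 0.122), and Junb did without non-tumour replicate 3 or tumour replicates 5 and 6 (0.0676 to 0.108); 3 members were called without tumour replicate 6. Of 18 clock genes 3 were called higher and 2 lower, both under the shares over all genes. Nr1d1 was at 80.5, 73.7 and 79.8 CPM against 44.1, 19.1 and 24.9 (1.46 ± 0.37) and Per1 at 79.1, 75.1 and 75.8 against 36.2, 25.8 and 31.8 (1.28 ± 0.32), while Nfil3, at 5.82, 17.1 and 7.15 against 25.98, 26.4 and 17.4 (-1.25 ± 0.43), was called lower. Nfil3 lost its call without non-tumour replicate 1 or 2 or tumour replicates 4 and 6 (adjusted p 0.0654 to 0.113), and 0 clock genes were called lower without non-tumour replicate 2 or tumour replicate 4. The part of handling or hour of collection in these results was not tested.

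Of 8 IL-17 receptors and adaptors tested 3 were called higher and 1 lower (median 0.67). Beside Il17ra, those called higher were Il17rb, the IL-25 receptor, at 8.45, 24.4 and 15.7 CPM against 6.22, 8.81 and 7.35 (log2 fold change 0.92 ± 0.33), and Nfkbiz, a coactivator of IL-17 targets, at 30.1, 23.6 and 21.05 against 15.9, 10.3 and 15.4 (0.81 ± 0.31). Il17ra kept its call without each library, whereas Il17rb was not called without non-tumour replicate 1 or 3 or tumour replicates 5 and 6 (adjusted p 0.0583 to 0.197). Nfkbiz was not called without non-tumour replicate 2 or 3 or tumour replicates 4 and 5 (0.0509 to 0.179). Without non-tumour replicate 3 or tumour replicate 5, 1 member was called higher and 0 lower. Il17rc, the partner subunit of IL-17RA, was at 20.5, 19.9 and 18.4 CPM against 24.8, 18.5 and 19.3 and not called. Il17a and Il17f, the ligands, were below the level tested. Of 14 IL-17-responsive genes tested 1 (Nfkbiz) was called higher and 3 lower (median -0.40). The median was -0.06 without non-tumour replicate 3, -0.14 without tumour replicate 4 and -0.08 with the length trend taken out, a setting with 3 called higher and 2 lower. Those called lower with all libraries were Saa1, Zc3h12c, an RNA-degrading feedback protein, at 15.1, 17.5 and 16.96 CPM against 33.7, 29.4 and 27.02 (-0.82 ± 0.16), and the NF-kB inhibitor gene Nfkbia, at 28.96, 38.1 and 30.04 against 57.4, 50.1 and 39.1 (-0.57 ± 0.22). Nfkbia was not called without non-tumour replicate 1 or 2 or tumour replicates 4 and 6 (adjusted p 0.0967 to 0.147), and 2 members were called lower in those cases. Lcn2, lipocalin 2, a secreted iron-scavenging protein, was at 938, 766 and 730.3 CPM against 130.1, 41.3 and 358, with all tumours above all non-tumour libraries, and missed the threshold (2.68 ± 1.14, adjusted p 0.0607); without non-tumour replicate 3 it passed (3.44, adjusted p 0.0332).

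The tumour effect was then set against the same effect in WT mice on HFD, with an interaction test over the 12631 genes. It differed for 2 genes (0.0158%), 1 in each direction (0.00792% each), while 1979 had an unadjusted p under 0.05, and limma-voom also called 2, with 1971. Rbp4, the plasma carrier of retinol, rose in labelled tumours, at 2015, 2300 and 2095 CPM against 1088, 1086 and 1194, while the WT tumours were at 853 ± 214 CPM (SD, n = 3) against 1125 ± 17.8 (n = 3) in WT non-tumour liver. The difference of the effects was 1.36 ± 0.24 on the log2 scale (adjusted p 0.0462). Prdx6, a peroxidase that repairs oxidized phospholipids, fell in labelled tumours, at 171, 163 and 189 CPM against 571, 592 and 516, and WT tumours were at 391 ± 27.4 CPM against 503 ± 82.7, a difference of -1.33 ± 0.19 (adjusted p 0.00304). In the groups on HFD_alcohol the tumours were at 1912 ± 453 (labelled, n = 4) and 1853 ± 178 CPM (WT, n = 3) for Rbp4 and at 203 ± 23.1 and 173 ± 31.9 for Prdx6, so in those groups the tumours of both labels had means nearer to the labelled than to the WT tumours on HFD. The number of genes called depended on single libraries: it was 1 without each of the labelled libraries, 1 without non-tumour WT replicate 2 or 3 or WT tumour replicate 4, 7 without non-tumour WT replicate 1, 11 without WT tumour replicate 6 and 868 without WT tumour replicate 5. Prdx6 was the gene that remained where 1 was called. For Rbp4, interaction with the genotype label then had an adjusted p of 0.0539 to 0.141. With only the libraries of the 4 HFD groups in the fit neither gene was called (adjusted p 0.375 for both). Nab2 upward and Rps13 and Itfg1 downward were among the genes nearest to a call, and none of these passed.

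Against the tumour effect on HFD_alcohol in mice of the same label, no gene was called: limma called 0 of 12631 (0.0%), and 598 genes had an unadjusted p under 0.05. With groups of 3 to 5 libraries, a lack of calls does not show that the effects were equal. The limma-voom fit also called 0, where 540 genes lay under that unadjusted p. The list medians lay side by side as follows. Cholesterol synthesis was at 0.98 here, 1.05 in WT mice on HFD and -0.55 on HFD_alcohol, pericentral genes at -1.93, -1.59 and -0.82, and NRF2 genes at -0.21, 0.40 and 0.29. Oncofetal markers were at 2.60, 2.58 and 3.44, mitosis genes at 1.41, 0.95 and 1.63, bile acid synthesis at -2.23, -1.48 and -1.84, and male-biased genes at -3.64, -3.02 and -3.70. No test of a list was made.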

How the data were processed

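Liver RNA was extracted with a Purelink kit and sequenced from stranded polyA libraries, per the labels' protocols. The authors deposited 1 table of CPM for 29 libraries; the tools were STAR 2.5.1a and RSEM 1.3.0 with the build GRCm38, per the submitters' processing notes. The strand setting and the annotation were not given in the sources used here. Each column of CPM summed to 1e+06. Symbols came from GENCODE M21, which matched 12540 of the 12631 genes compared. CPM steps showed 83.4% to 86.2% of values as whole counts within 0.002, and at least 99.98% as multiples of a hundredth of a count, as estimated counts would be; the recovered counts served depth and limma-voom only.

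The main test was limma 3.58.1 (R 4.3.3) on log2(CPM + 1) of genes with at least 1 CPM in at least 3 of the 6 libraries, with 8 group means over 29 libraries, a variance trend and Benjamini-Hochberg adjustment. Interactions came from the same model. Alternatives were another pseudocount (0.1), other filters, rescaling, limma-voom, fewer libraries, a replicate block, each library left out and a length adjustment. The fit was tested on simulated data. Members and gene lists were chosen with earlier results of these data known. Genes named were Il17ra, the 10 largest rises and falls without overlap at a mean of at least 5 CPM, up to 4 called members per list, preset members, and the leading interaction genes; others are marked where named. Levels in CPM are not per length and were not compared between genes. Near-identical or overlapping genes may share reads. Some members named by this rule are not reported here.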

Additional observations from a re-analysis of the deposited data

Results flagged for a closer look

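The tumour effect of Rbp4, the retinol carrier of plasma, differed between the genotype labels on HFD by 1.358 on the log2 scale (limma interaction, adjusted p 0.0462). All 3 labelled tumours (2015 to 2300 CPM) lay above the labelled non-tumour libraries (1086 to 1194 CPM), whereas the WT tumours (619 to 1038 CPM) lay below WT non-tumour liver (1108 to 1144 CPM). For the peroxidase gene Prdx6 the difference was -1.326 (adjusted p 0.00304), and the labelled tumours were at 163 to 189 CPM and the WT tumours at 371 to 422 CPM. Without non-tumour labelled replicate 3, non-tumour WT replicate 1 and WT tumour replicate 4, the libraries nearest the other tissue on the first component, neither was called (adjusted p 0.182 and 0.0846).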

How the results depend on the processing

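Of 221 named genes 193 were called, 152 of these under every setting run and 41 not under at least 1; none of the called genes changed sign. Counts for the tumour comparison stayed within 1.5 times of 5421, from 4060 without non-tumour replicate 2 to 5753 after rescaling, and the share of calls that were higher went from 58.3% to 50.1% after rescaling and 46.3% with the length trend taken out. For the difference by genotype label, 7 genes were called with no filter and 7 after rescaling, 1 with the filter over 29 libraries, 13 with the length adjustment, 0 with only the 4 groups in the fit and 0 without the 3 HFD libraries nearest the other tissue; leaving out 1 library gave 1 to 868. The cause was not tested. The number of genes called for the difference by diet stayed at 0 under every setting run.

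Same-numbered libraries of different genotype labels or diets did not deviate together (r -0.134 to 0.141). That comparison cannot show whether a tumour and a non-tumour library share an animal. Between the tumours and non-tumour libraries compared here, r ran from -0.29 to 0.288. With the replicate block 0 genes were called for the difference by genotype label and 0 for that by diet. No paired analysis was possible for tumour against non-tumour because these groups share no replicate numbers.

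Genes without a call changed sign as follows. With the length adjustment F7 was at 0.11, Stab2 at -0.18, Hamp at 0.20, Plvap at 0.082, Il17rc at 0.0059 and Pkm at -0.12, and after rescaling Pkm was at -0.0059. As each library was left out, Cpt1a ran from -0.14 to 0.093, Pkm from -0.0026 to 0.30, Gclc from -0.15 to 0.18, Hamp from -0.89 to 0.77, Trem2 from -0.48 to 0.095, Gpnmb from -0.43 to 1.40, Plvap from -0.28 to 0.11 and Il17rc from -0.15 to 0.051. List medians near 0 changed sign too: as each library was left out, that of the hepatocyte transcription factors reached 0.039, of the growth hormone and IGF axis 0.12, of clock genes 0.029, of neutrophil markers 0.18, of T and NK cell markers -0.048 and of MHC class II genes -0.12, and with the length adjustment that of endothelial markers was -0.0067. Depth limits genes near 0.311 to 0.645 CPM, the level of 3 counts.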
